A study of Mus musculus with 8 samples.

Results

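The basement membrane receptors examined here are 10 transcripts: 6 integrin alpha chains (*Itga1*, *Itga2*, *Itga3*, *Itga5*, *Itga6* and *Itga7*), 2 integrin beta chains (*Itgb1* and *Itgb4*), dystroglycan (*Dag1*) and the discoidin domain receptor *Ddr1*. They were taken by gene symbol from tables of 54281 genes. The rule that names them uses no measured value, but it was set with earlier results of these data known. RNA-seq covered mouse epiblast-like cells (EpiLCs), the formative pluripotent state reached when naive embryonic stem cells (ESCs) are cultured with bFGF, and all cells were harvested on day 2 of conversion. One group was made up of 4 lines with the Tet1 tm1Koh allele (*Tet1* KO: KO1, KO9, KO15, KO25), a knockout of the 5-methylcytosine oxidase TET1, and the other of 4 lines with intact *Tet1* (WT: WT7, WT12, WT17, WT34). All lines were ESCs of a B6 and 129S6 F1 background, converted on fibronectin without Activin A, with 1 library per line. The paper describes its ESC lines as littermate pairs but the labels do not give the pairs, so none were formed, and the spread within a group mixes lines, cultures and libraries. Titles and cell line labels differ for WT12 (labelled WT9) and WT17 (labelled WT12), and titles are used here since either name is WT. A suffix without explanation in the labels divides the table columns: WT7, WT17, KO1 and KO9 have b1, and WT12, WT34, KO15 and KO25 have b2.

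Integrins are heterodimers of an alpha and a beta chain, and the alpha chain largely sets the ligand. With the beta1 chain (*Itgb1*), alpha3, alpha6 and alpha7 bind laminins, alpha5 binds fibronectin, and alpha1 and alpha2 bind collagens, whereas alpha6 with the beta4 chain (*Itgb4*) anchors epithelial hemidesmosomes to laminin. Dystroglycan binds laminin through sugar chains, and DDR1 is a receptor tyrosine kinase for collagen. In the epiblast, receptors of these families contact the basement membrane that surrounds it.

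Library totals ran from 13916576 to 20917851 estimated counts for KO and from 14771499 to 23680839 for WT. In CPM, counts scaled to a library's TMM-scaled total, *Tet1* reached 559 to 851 where it was intact and 38.4 to 54.2 in the KO lines. In TPM, the ranges were 60.5 to 91.5 and 21.6 to 32.0, so KO and WT lines did not overlap on either scale. All 8 epiblast markers examined were above 1 TPM, a level scaled by transcript length and library, among them *Pou5f1* (457 TPM) and *Dnmt3b* (248 TPM). Of 10 feeder fibroblast markers 2 had a mean of 1 TPM or more, *Thy1* (15.6 TPM) and *Dcn* (1.66 TPM), and *Postn* was at 0 in every line. Their summed level was 11.8 to 31.2 TPM in KO and 6.18 to 21.3 TPM in WT lines. Of 12 extraembryonic endoderm markers 1 reached 1 TPM (*Dab2*, 2.32 TPM), with *Ttr* at 0 in every line and sums of 2.27 to 5.07 TPM in KO and 2.85 to 5.1 TPM in WT lines. Of 8 trophoblast markers 4 reached 1 TPM, with sums of 7.03 to 8.72 TPM in KO and 8.29 to 14.9 TPM in WT lines. Within these sums *Gata3* had a mean of 0.453 TPM in KO and 3.07 TPM in WT. In CPM its ranges overlapped, at 0.797 to 2.41 in KO and 0.825 to 3.82 in WT lines. The part of such cells in the receptor values was not tested. In bulk RNA, fewer cells of a type and less RNA per cell cannot be told apart.

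The receptor genes are spread over 8 chromosomes. As TET1 acts on methylated CpG sites, the 250 bases upstream of the transcription start are shown for *Itgb1* and *Itga3*, which were abundant, and for the neighbouring genes *Itga1* and *Itga2*, which were not. Sequences are from RefSeq (GRCm38.p6), written 5′ to 3′ on the gene's strand, with the motif searched, CG, in capitals. CG reads the same on both strands. *Itga3* has another listed start, which is not shown.
Itgb1, chr8:128685404-128685653, plus strand: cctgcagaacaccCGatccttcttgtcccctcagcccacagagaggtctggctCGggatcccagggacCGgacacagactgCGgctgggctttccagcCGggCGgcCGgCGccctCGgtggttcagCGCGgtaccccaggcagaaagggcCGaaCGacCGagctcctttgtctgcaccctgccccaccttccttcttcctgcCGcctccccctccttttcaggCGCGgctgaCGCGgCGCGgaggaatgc
Itga3, chr11:95076715-95076964, minus strand: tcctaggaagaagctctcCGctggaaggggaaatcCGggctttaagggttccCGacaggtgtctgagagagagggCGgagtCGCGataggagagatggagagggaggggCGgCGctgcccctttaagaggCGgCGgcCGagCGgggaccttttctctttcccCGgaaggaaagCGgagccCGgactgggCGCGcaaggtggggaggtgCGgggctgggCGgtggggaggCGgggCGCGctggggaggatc
Itga1, chr13:115101965-115102214, minus strand: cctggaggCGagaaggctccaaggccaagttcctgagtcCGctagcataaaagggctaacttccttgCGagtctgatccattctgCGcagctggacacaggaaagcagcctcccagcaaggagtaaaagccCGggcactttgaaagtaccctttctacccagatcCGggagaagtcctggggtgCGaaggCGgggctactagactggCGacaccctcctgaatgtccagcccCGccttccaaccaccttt
Itga2, chr13:114932101-114932350, minus strand: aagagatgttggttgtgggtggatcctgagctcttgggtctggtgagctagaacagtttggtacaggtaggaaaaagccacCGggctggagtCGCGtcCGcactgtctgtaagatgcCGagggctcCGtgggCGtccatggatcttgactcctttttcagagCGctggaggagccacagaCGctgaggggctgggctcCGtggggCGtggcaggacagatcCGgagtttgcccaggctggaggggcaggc
The *Itgb1* window held 21 CpG, a number reached by 16.3% of the 32851 promoter windows of this length. The *Itga3* window held 22, reached by 14.8%. The *Itga1* window held 10 and the *Itga2* window 12, reached by 37.8% and 33.5% of windows. The median of all windows was 6, and 7.87% held none. All 4 windows shown thus lay above the median, those of both low genes included, while the window of the other *Itga3* start held 5. The table held windows for 7 of the 10 genes, and a CpG count is a description of the sequence, since no methylation was measured here.

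Levels differed between the receptors far more than between lines. TPM was used for every comparison between genes. In order of mean TPM over the 8 lines (± SD), *Itga6* was highest (58.7 ± 7.82), followed by *Dag1* (40.6 ± 4.08), *Itgb1* (39.5 ± 4.54), *Itga3* (25.6 ± 5.77), *Ddr1* (8.8 ± 1.31), *Itga5* (5.82 ± 1.07) and *Itgb4* (1.06 ± 0.546). *Itga1* (0.211 ± 0.0915), *Itga7* (0.179 ± 0.0779) and *Itga2* (0.00272 ± 0.00247) were under 1 TPM in every line. Thus 7 of 10 had a mean of at least 1 TPM, and 6 were above it in every line, as *Itgb4* was so in 5 of 8. Some neighbours in this order were not separated. *Dag1* exceeded *Itgb1* in 5 of 8 lines, and *Itga1* exceeded *Itga7* in 3 of 8. *Itga6* exceeded *Dag1*, *Itgb1* exceeded *Itga3* and *Ddr1* exceeded *Itga5* in 8 of 8 lines, although the ranges of each pair overlapped. The ranges did not overlap at the steps from *Itga3* to *Ddr1* (2.91-fold between means), *Itga5* to *Itgb4* (5.5-fold), *Itgb4* to *Itga1* (5.03-fold) and *Itga7* to *Itga2*.

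**Figure D1:**
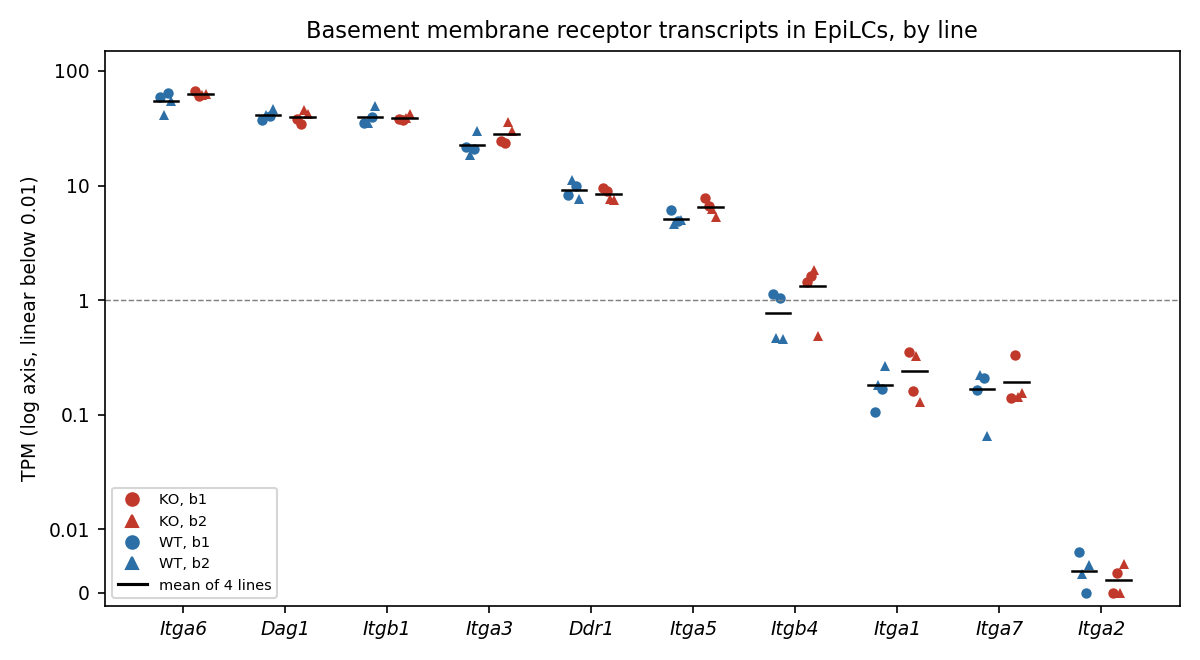
TPM of the 10 receptor transcripts in each line, on a log axis that is linear below 0.01, with WT lines in blue, KO lines in red, circles for suffix b1, triangles for b2 and a black bar at the mean of 4 lines. *Itga6*, *Dag1*, *Itgb1* and *Itga3* lie above 10 TPM in every line, and *Itga1*, *Itga7* and *Itga2* lie below the dashed line at 1 TPM.

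*Itgb1* (chr8:128685654-128733200, plus strand; here and below gene bodies are on mm10), the chain shared by most matrix-binding integrins, was at 38.3, 37.4, 39.0 and 42.1 TPM in KO1, KO9, KO15 and KO25. In WT7, WT12, WT17 and WT34 it was at 34.8, 35.2, 39.8 and 49.0 TPM. WT lines thus included both the lowest and the highest value. Its coefficient of variation over the 8 lines was 7.1% in CPM, the lowest of the 10 genes, but 11.5% in TPM, where *Dag1* was lowest (10.1%). The 5 genes whose log2 CPM followed *Itgb1* most closely among 9493 genes with a mean of at least 10 CPM were *Zfp740* (Pearson r = 0.954), *Fam172a* (0.948), *Pam* (0.943), *Morc1* (0.941) and *Ttc39b* (0.941). These are descriptions over 8 libraries that share their scaling and suffix. Among the receptors, *Itga5* (0.79) and *Itga6* (0.75) had the highest r with *Itgb1* and *Ddr1* the lowest (−0.88). WT12 (185 CPM) and WT34 (240 CPM) set most of the range of *Itgb1*, as all other lines lay at 212 to 226 CPM. *Ddr1* was highest in WT12 (95.3 CPM) and lowest in WT34 (62.9 CPM). How far r depends on these lines was not tested.

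The laminin-binding chain *Itga6* (chr2:71745616-71858416, plus strand) was the most abundant alpha chain in every line. Its TPM was 66.2, 60.1, 61.1 and 62.7 in KO1, KO9, KO15 and KO25 and 59.1, 41.2, 64.2 and 55.0 in WT7, WT12, WT17 and WT34. WT12 was lowest, and the other 7 lines lay within 55.0 to 66.2 TPM. *Itga3* (chr11:95044474-95076801, minus strand), a receptor for laminins with the alpha5 chain, was at 24.4, 23.7, 35.7 and 29.9 TPM in the KO lines in the same order. In the WT lines it was at 21.8, 18.6, 20.7 and 30.0 TPM. Its highest values were in KO15, WT34 and KO25, which are all b2 lines, but WT12, also b2, was lowest. *Itga7* (chr10:128933818-128958282, plus strand), the laminin receptor of muscle, ranged from 0.0657 to 0.331 TPM.

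The fibronectin-binding chain *Itga5* (chr15:103344286-103366763, minus strand) was at 7.8, 6.59, 6.3 and 5.3 TPM in KO1, KO9, KO15 and KO25. It was at 6.06, 4.63, 4.88 and 5.04 TPM in WT7, WT12, WT17 and WT34, so KO25 fell within the WT range. Its ligand *Fn1* was at 76.6 ± 7.64 TPM (SD, n = 8), and the cells also grew on added fibronectin. Another fibronectin-binding chain, *Itgav*, was at 5.77 ± 1.22 TPM, with its partners *Itgb5* at 24.8 ± 8.57 TPM and *Itgb3* at 0.127 ± 0.0497 TPM.

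Collagen-binding alpha chains were under 1 TPM, and *Itga2* was under the floor of detection. *Itga1* and *Itga2* lie side by side on the minus strand of chromosome 13 (*Itga1* at chr13:114953096-115101964 and *Itga2* at chr13:114833081-114932100), 20995 bases apart. *Itga1* had 0.105 to 0.353 TPM, or 41.4 to 93.2 estimated counts per line. *Itga2* had at most 1.89 estimated counts in any line and 6.023 over all 8, which is under a floor of 3 counts in each line. That floor equals 0.125 to 0.219 CPM and covers counting error only, so *Itga2* was not detectable at this depth. In the wider list, the collagen-binding chains *Itga10* (0.359 TPM) and *Itga11* (0.00263 TPM) were also under 1 TPM. *Itga10* and *Itga11* were named after their values were seen.

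Taking the lower of both chains as the transcript level of a pair, 4 of 7 pairs had a mean of at least 1 TPM. These were alpha6beta1 (39.5 ± 4.54 TPM), alpha3beta1 (25.6 ± 5.77 TPM), alpha5beta1 (5.82 ± 1.07 TPM) and alpha6beta4 (1.06 ± 0.546 TPM). The first 3 reached 1 TPM in 8 of 8 lines and alpha6beta4 in 5 of 8. Without KO9, without KO15 or at a threshold of 2 TPM, 3 pairs and 6 receptors remained. Alpha1beta1 (0.211 TPM), alpha7beta1 (0.179 TPM) and alpha2beta1 (0.00272 TPM) reached it in none. For alpha6beta1 the lower chain was *Itgb1* in 8 of 8 lines, and for the other beta1 pairs it was the alpha chain. Of the summed TPM of the 6 alpha chains, *Itga6* made up 64.9% ± 3.93 (SD, n = 8), *Itga3* 28.2% ± 4.22 and *Itga5* 6.46% ± 0.963. Laminin-binding chains together made up 93.3% ± 0.994 and collagen-binding chains 0.235% ± 0.0878. The alpha chains summed to 2.31 ± 0.312 times the *Itgb1* level, with 2.33 to 2.65 in KO and 1.84 to 2.51 in WT lines, and these ranges overlapped. They describe transcripts, not receptor protein.

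**Figure D2:**
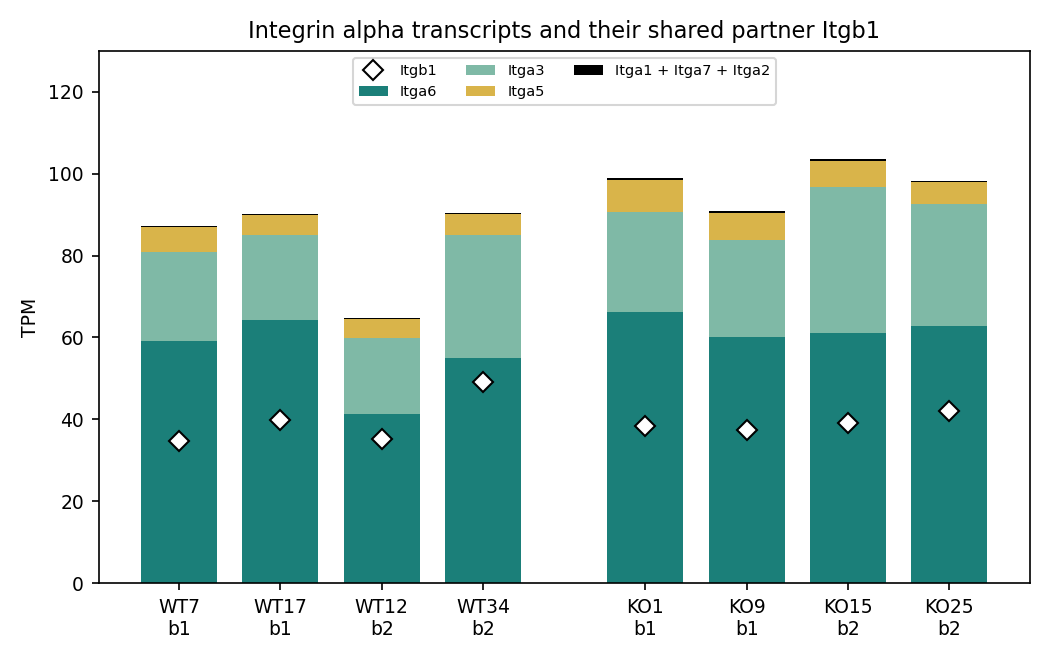
TPM of integrin alpha chains stacked by line, with *Itgb1* as a white diamond and the column suffix under each line. *Itga6* is the largest part in every line and exceeds *Itgb1* in 8 of 8 lines, and *Itga1*, *Itga7* and *Itga2* together are a thin black band at the top.

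*Itgb4* (chr11:115974709-116008412, plus strand), the hemidesmosomal beta chain, was at 1.44, 1.61, 1.83 and 0.485 TPM in KO1, KO9, KO15 and KO25 and at 1.14, 0.467, 1.05 and 0.458 TPM in WT7, WT12, WT17 and WT34. In CPM the same libraries were much closer, at 9.98, 8.52, 7.06 and 6.93 in KO and 8.19, 6.42, 8.67 and 7.01 in WT lines. The group means were 1.34 and 0.778 TPM but 8.12 and 7.57 CPM. The ratio of counts to TPM, which for each gene reflects the length that the quantification assigned to its transcripts, varied 3.883-fold between lines for *Itgb4*. It varied 1.098-fold to 1.461-fold for the other 6 receptors with a mean of 1 TPM or more. The median was 1.171-fold over 4782 genes, all more abundant in TPM in every line than *Itgb4*. The *Itgb4* TPM values thus differ between lines where the counts differ little. Of the hemidesmosome partners, *Dst* (35.7 TPM), *Krt18* (27.0 TPM), *Cd151* (20.4 TPM), *Krt8* (5.02 TPM) and *Plec* (4.69 TPM) were above 1 TPM. The basal keratins *Krt5* (0.00228 TPM) and *Krt14* (0.00762 TPM) and the hemidesmosomal collagen *Col17a1* (0.335 TPM), named after their values were seen, were not.

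*Dag1* (chr9:108204634-108263958, minus strand), which encodes both subunits of dystroglycan, was at 38.2, 34.4, 45.2 and 42.2 TPM in KO1, KO9, KO15 and KO25. In WT7, WT12, WT17 and WT34 it was at 37.0, 40.9, 40.5 and 46.6 TPM. Each b2 line was above each b1 line in TPM (40.9 to 46.6 against 34.4 to 40.5), but not in CPM, where WT12 (408) was below WT7 (422). Genes for the laminin-binding sugar of dystroglycan were mostly present, with 16 of 18 at a mean of 1 TPM or more, such as *Dpm1* (28.8 TPM), *Rxylt1* (17.3 TPM) and *Pomgnt1* (16.7 TPM). In the dystrophin-glycoprotein complex, which ties dystroglycan to actin, 8 of 14 were at that level. *Dtnb* was at 48.5 TPM, *Dmd* (dystrophin) at 11.7 TPM and its homologue *Utrn* at 8.62 TPM.

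*Ddr1* (chr17:35681567-35704621, minus strand) was the only receptor with a collagen ligand among these 10 that exceeded 1 TPM. It was at 9.47, 8.89, 7.64 and 7.5 TPM in KO1, KO9, KO15 and KO25 and at 8.24, 11.2, 9.91 and 7.57 TPM in WT7, WT12, WT17 and WT34. WT12 was highest here, while it was lowest for *Itga3*, *Itga5* and *Itga6*.

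None of the receptors was called between *Tet1* KO and WT EpiLCs. By edgeR's quasi-likelihood test on counts, 0 of the 9 tested receptors passed an adjusted p of 0.05, where 0.0405% of all 17272 genes did. *Itga2* was too low to be tested. At an unadjusted p under 0.05 the count was 0 of 9, against 5.62% of all genes. DESeq2 called 0 as well, where it called 0.614% of all genes. Without WT34 this unadjusted count was 2 of 9 (*Itga3* and *Itga5*), against 5.71% of all genes, and without KO9 it was 1 (*Itga3*), against 4.2%. KO and WT lines overlapped in CPM for all 9, and 4.19% of all genes tested did not overlap. The median log2 fold change of the 9 was 0.10, beside −0.00 over all genes, and the median size was 0.10 beside 0.13, with 6 of 9 above 0. The largest estimate over the 8 lines was that of *Itga1*, with 3.68 ± 0.884 CPM in KO and 2.78 ± 0.58 CPM in WT (SD, n = 4 each; log2 fold change 0.41, SE 0.25, edgeR adjusted p = 0.986). It was 0.25 without KO15.

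For *Itga3*, KO1, KO9, KO15 and KO25 had 167, 156, 234 and 181 CPM. WT7, WT12, WT17 and WT34 had 135, 128, 136 and 193 CPM. All KO lines thus exceeded 3 of the WT lines, while WT34 lay among them, and the log2 fold change was 0.32 (SE 0.16, 95% interval −0.05 to 0.68, edgeR adjusted p = 0.936). It was 0.18 without KO15. *Itga5* had 52.9, 47.5, 49.0 and 51.1 CPM in KO lines and 44.8, 31.2, 34.7 and 51.4 CPM in WT lines. Again 3 WT lines were below all KO lines and WT34 was not, and the log2 fold change was 0.31 (SE 0.15, 95% interval −0.04 to 0.65, edgeR adjusted p = 0.932), or 0.20 without WT12. *Itga6* was at 436, 405, 413 and 454 CPM in KO and 415, 274, 407 and 387 CPM in WT lines, where WT12 stood apart (log2 fold change 0.20, 95% interval −0.08 to 0.49, edgeR adjusted p = 0.989), and the estimate was 0.08 without WT12.

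The beta chains and the receptors outside the integrin family had estimates nearer 0. *Itgb1* had a log2 fold change of 0.04 (95% interval −0.16 to 0.23), the narrowest interval of the 9. *Dag1* was at 0.00 (−0.27 to 0.27), *Ddr1* at −0.08 (−0.38 to 0.22) and *Itgb4* at 0.10 (−0.30 to 0.50). *Itga7* had the widest interval (−0.85 to 0.77 around −0.04), at 8.79 to 31.7 estimated counts per line. The adjusted p of these 5 was 0.998 to 0.999 by edgeR. The intervals for *Itgb1* and *Dag1* lie within a change of 0.27 on the log2 scale, whereas those of *Itga1* and *Itga7* do not limit the difference closely.

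**Figure D3:**
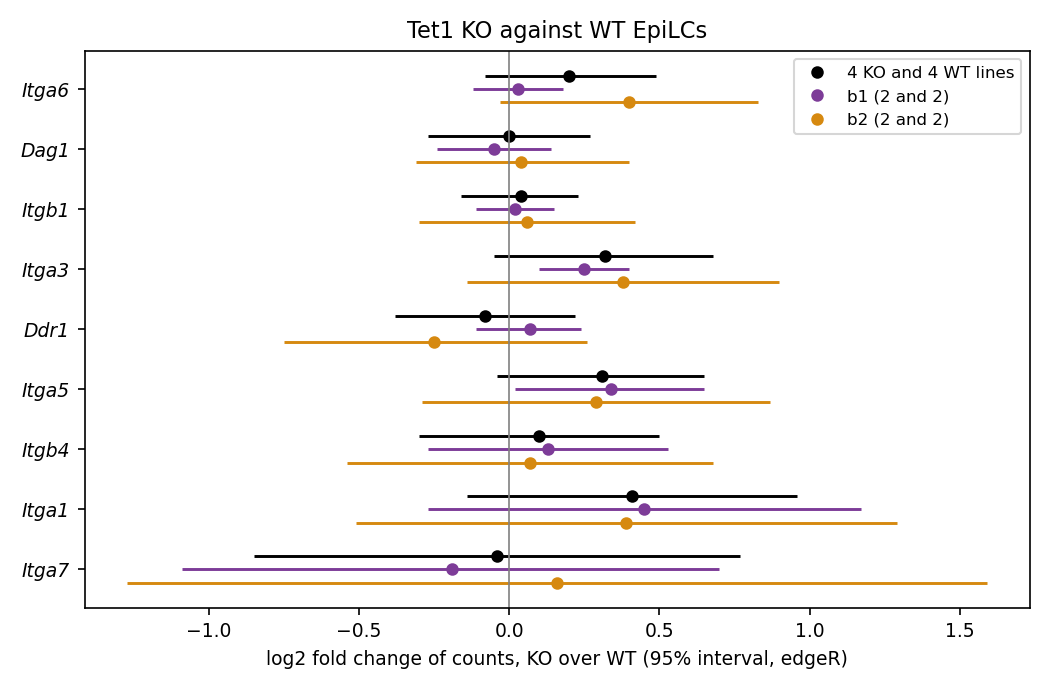
Log2 fold change of counts (KO over WT, edgeR) with 95% intervals for the 9 tested receptors, over all lines (black), within b1 (purple) and within b2 (orange). All black intervals cross 0, and *Itga3* and *Itga5* within b1 are the intervals that do not.

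Within the suffixes no receptor was called either. In b1, with 2 KO and 2 WT lines, edgeR called 0 of 9 (0.109% of all genes tested there), and 2 had an unadjusted p under 0.05, where 11% of all genes did. *Itga3* had a log2 fold change of 0.25 (95% interval 0.10 to 0.40, edgeR adjusted p = 0.288), with 167 and 156 CPM in KO against 135 and 136 CPM in WT. *Itga5* was at 0.34 (0.02 to 0.65, edgeR adjusted p = 0.424). In b2 edgeR called 0 of 9 (0.0289% of all genes tested), with 0 at an unadjusted p under 0.05, where 3.36% of all genes were. *Itga3* was at 0.38 (−0.14 to 0.90) and *Itga5* at 0.29 (−0.29 to 0.87) there, both in the same direction as in b1. *Itga6* was at 0.03 (−0.12 to 0.18) in b1 and 0.40 (−0.03 to 0.83) in b2. With the suffix as a block over all lines, edgeR called 0 of 9 (0.162% of all genes). An unadjusted p under 0.05 was reached by 1 of 9 and by 11.9% of all genes. This was *Itga3* (log2 fold change 0.31, 95% interval 0.03 to 0.59, edgeR adjusted p = 0.367).

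The KO difference itself was not found to vary between suffixes. The interaction of genotype and suffix was called by edgeR for 0 of 9 receptors and for 0% of all genes, with 0 of 9 receptors and 1.31% of genes at an unadjusted p under 0.05. DESeq2 called 2 genes, none of them a receptor. The largest estimate was for *Itga6*, whose KO difference was 0.36 higher in b2 on the log2 scale (SE 0.21, 95% interval −0.11 to 0.84).

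Between b2 and b1 lines, with genotype in the model, 0 of 9 receptors were called by edgeR, while 24.6% of all genes were. DESeq2 called 0 receptors too, where it called 26.7% of all genes. At an unadjusted p under 0.05 there were 3 of 9 by either tool, against 37.8% of all genes by edgeR and 36.3% by DESeq2. The median size of the difference was 0.24 on the log2 scale, beside 0.26 over all genes. *Itgb4* was the 1 receptor whose suffixes did not overlap in CPM (8.19 to 9.98 in b1 and 6.42 to 7.06 in b2), where 26.3% of all genes did not. Its log2 difference was −0.37 (95% interval −0.64 to −0.09, edgeR adjusted p = 0.0571). *Dag1* was at 0.24 (0.05 to 0.43, edgeR adjusted p = 0.0683) and *Itga3* at 0.30 (0.02 to 0.58, edgeR adjusted p = 0.109). Without WT12, *Itga3* (0.40, edgeR adjusted p = 0.01), *Dag1* (0.30, edgeR adjusted p = 0.0127) and *Ddr1* (−0.29, edgeR adjusted p = 0.00809) were called, so this count depends on that library. In that fit 3 of 9 receptors stand beside 27.3% of all genes called.

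**Figure D4:**
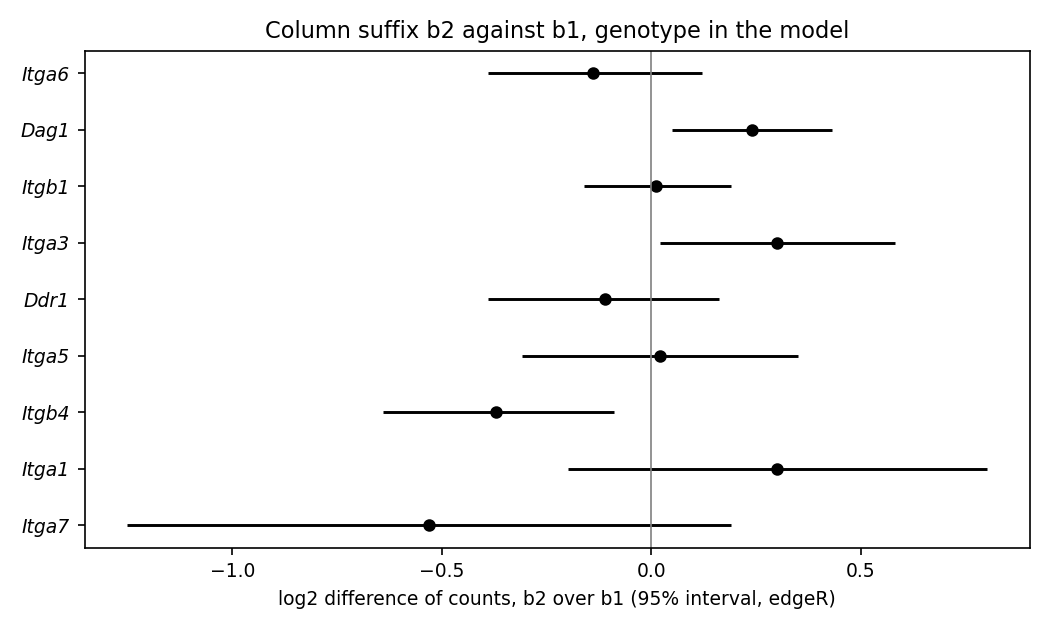
Log2 difference of counts between b2 and b1 lines (edgeR, genotype in the model) with 95% intervals for the 9 tested receptors. *Dag1* and *Itga3* lie above 0 and *Itgb4* below 0 with intervals that do not cross it, although none passed the adjusted threshold.

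The ratio of both main laminin-binding chains differed by suffix, although neither chain was called between suffixes over the 8 lines. This ratio was chosen after the values were seen and is a description. The share of other gene pairs that separate by suffix was not counted, and 26.3% of single genes did. The TPM of *Itga6* was 2.54 to 3.1 times that of *Itga3* in b1 lines and 1.71 to 2.21 times in b2 lines, which did not overlap. By genotype, KO lines had a ratio of 2.26 ± 0.452 and WT lines of 2.46 ± 0.556 (SD, n = 4 each). The ranges of the genotypes overlapped.

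Wider lists of adhesion genes were read from the same KO against WT fit. Of the ligands, 2 of 16 tested were called, both higher in KO, and the other lists, those of cell type markers included, had 0 called. Medians of the log2 fold change ran from −0.06 in the dystrophin complex to 0.51 in the other beta chains (3 tested) among the adhesion lists, beside −0.00 over all genes. The called genes encode the alpha1 and alpha2 chains of collagen IV, a main basement membrane collagen. *Col4a1* had a mean of 16.4 TPM in KO and 7.55 TPM in WT (log2 fold change 1.06, SE 0.10, edgeR adjusted p = 0.00699). *Col4a2* had 1.73 and 0.584 TPM (1.46, SE 0.15, edgeR adjusted p = 0.00699). Some markers of other cell types were also higher in KO at an unadjusted p under 0.05, though not called. The epiblast marker *Nanog* was lower in KO at that level, with 26.9 to 37.7 CPM against 39.0 to 64.1 CPM in WT lines. Its log2 fold change was −0.55 (edgeR adjusted p = 0.751), while 6 of 8 epiblast markers had estimates above 0. The endoderm marker *Sox7* ranged from 0.188 to 0.425 CPM over the WT lines and from 0.727 to 1.46 CPM over the KO lines (log2 fold change 2.03, edgeR adjusted p = 0.308), and 6 of 7 endoderm markers tested had estimates above 0. The endoderm marker highest in TPM, *Dab2*, was at 0.11 (2.15 TPM in KO and 2.5 TPM in WT). Of 6 feeder markers tested 4 were above 0, with *Fbln2* at 0.77 (edgeR adjusted p = 0.802) and *Loxl1* at 0.48 (edgeR adjusted p = 0.88). The fibroblast collagens *Col1a1* (−0.60) and *Col1a2* (−0.41), named after their values were seen, were below 0. *Col3a1*, another fibroblast collagen named after its values were seen, was too low to be tested. Its mean went the other way, with 0.321 TPM for KO against 0.0487 TPM for WT, and 1 line reached 1 TPM. The part of such cells in the collagen IV values was not tested. The laminin chains were led by *Lama5* (44.7 TPM), *Lamc1* (31.4 TPM) and *Lamb1* (19.9 TPM), with log2 fold changes of 0.01, 0.11 and 0.17, and the laminin-binding linker *Nid2* was at 31.6 TPM (−0.01). *Lama1* (0.703 TPM), named after its values were seen, was lower in KO at an unadjusted p under 0.05. Its log2 fold change was −0.61 (95% interval −1.16 to −0.07, edgeR adjusted p = 0.815), while 13 of 16 ligands tested had estimates above 0. Of the other collagen IV chains, *Col4a5* was tested and not called (0.109 TPM, log2 fold change 0.30, edgeR adjusted p = 0.998), *Col4a3*, *Col4a4* and *Col4a6* were too low to be tested, and these 4 are named after their values were seen. *Col4a1* and *Col4a2* were thus called by edgeR. The collagen-binding integrin chains were under 1 TPM in both genotypes, and *Ddr1* was not called. Both collagen genes were also called with the suffix as a block (edgeR adjusted p = 0.00192 and 0.00299). Limma on TPM called 0 genes higher in KO, so it called neither of them. In b2 alone edgeR called 1 gene higher in KO, so at most 1 of them was called there.

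Among 9 other alpha chains tested, 0 were called and 1 had an unadjusted p under 0.05 (*Itga8*, 0.222 TPM, log2 fold change 1.12, edgeR adjusted p = 0.791). Among 3 other beta chains tested, 0 were called and 2 had an unadjusted p under 0.05. *Itgb5* was at 29.4 TPM in KO and 20.3 TPM in WT (0.51, SE 0.15, edgeR adjusted p = 0.622). *Itgb3* was at 0.163 and 0.092 TPM (1.01, edgeR adjusted p = 0.633). Among 9 other matrix receptors tested, 0 were called. The Lutheran laminin receptor *Bcam* was at 57.3 ± 12.5 TPM (0.12), and the hyaluronan receptor *Cd44* was at 0.809 TPM in KO and 0.322 TPM in WT (1.19, SE 0.24, edgeR adjusted p = 0.307).

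The machinery that links integrins to actin was present and not called. Of 25 genes for integrin activation and focal adhesions 23 had a mean of at least 1 TPM, and 0 of 24 tested were called. *Actn4* (141 TPM) and *Actn1* (41.1 TPM) crosslink actin, *Tln1* (129 TPM) activates integrins, and *Ptk2* (55.6 TPM) encodes focal adhesion kinase. *Vcl*, which encodes vinculin, had a log2 fold change of 0.27 (edgeR adjusted p = 0.802). Of the tetraspanin and caveolar partners 0 of 7 were called, with *Slc3a2*, a partner of beta1 integrins, at 764 TPM (0.14) and the tetraspanin *Cd81* at 51.4 TPM (−0.12). In the hemidesmosome list 0 of 6, in the dystrophin complex 0 of 10, in the dystroglycan glycosylation list 0 of 18 and in the list of fibronectin and other RGD ligands 0 of 7 were called by edgeR. The numbers at an unadjusted p under 0.05 in these 4 lists were 1, 0, 0 and 1.

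**Figure D5:**
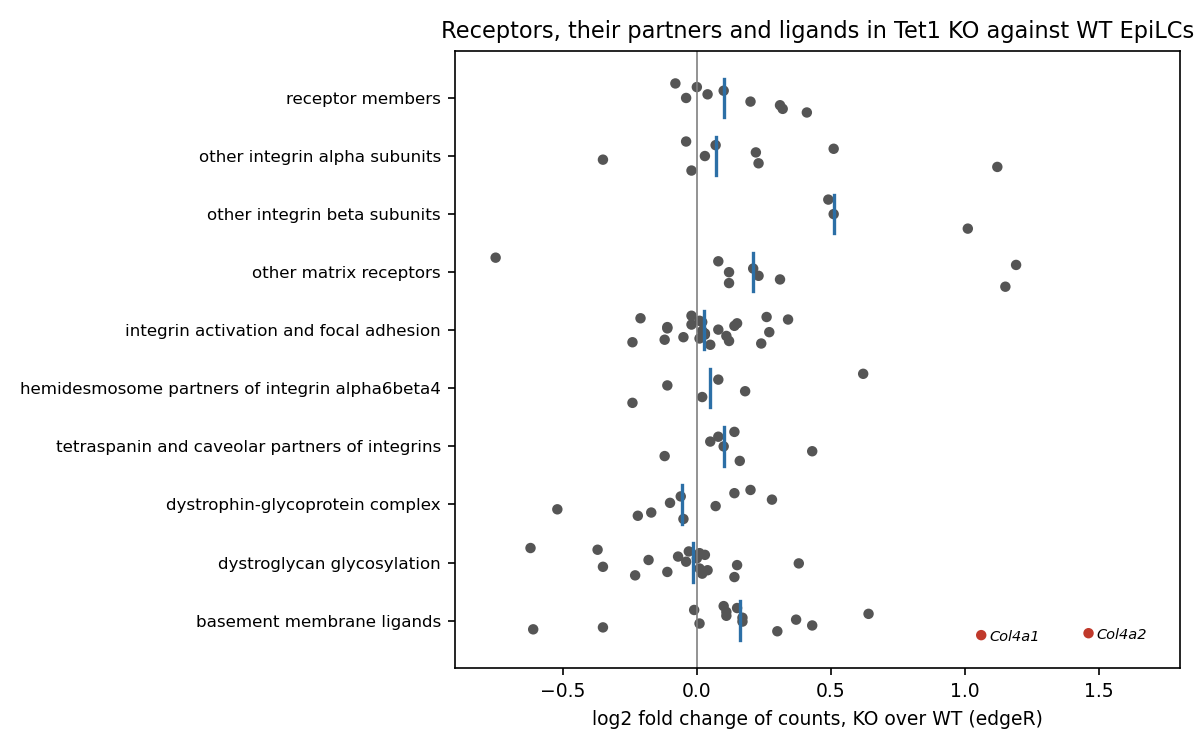
Log2 fold change of counts (KO over WT, edgeR) of each tested gene in the receptor list and 9 wider adhesion lists, with a blue bar at each list's median and called genes in red. The receptors lie between −0.08 and 0.41, and *Col4a1* (1.06) and *Col4a2* (1.46) are the genes called.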

How the data were processed

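RNA-seq of polyA RNA was examined in EpiLCs of 4 *Tet1* KO and 4 WT lines. Per the submitters' processing notes, which name the build mm10, Trim Galore 0.6.4 and Salmon 0.14.1 were used by the authors for trimming and quantification. The authors deposited estimated counts and TPM per gene as separate tables. Columns were matched to libraries by line names in titles. The suffix b1 or b2 is not explained there, and its cause cannot be told apart from the lines that carry it.

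Rounding of the estimated counts to integers moved 57% of nonzero values, by at most 0.5. edgeR 4.0.16 (R 4.3.3) fitted 17272 of 54281 genes (filterByExpr, TMM, quasi-likelihood test) with p-values adjusted over every gene tested (Benjamini-Hochberg), and an adjusted p under 0.05 was a call. The 205 rows without a symbol were kept as genes. CPM are counts over TMM-scaled library sizes. Levels between genes are from TPM, which the authors deposited. Intervals are 95%.

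Members and lists were chosen with earlier results of these data known. Named were all 10 receptors, every list gene called, the 5 genes most like *Itgb1* in log2(CPM + 0.5), and *Tet1*. Other names were drawn from the 4 or fewer genes of each list highest in TPM and the 2 or fewer lowest in p. Not all of these are given. *Postn*, *Ttr* and the genes so marked in the text were named after their values were seen. Alternatives were DESeq2 1.42.0 as the test, its size factors or library size alone, dropping the filter, requiring 10 counts per library throughout, limma 3.58.1 on log2(TPM + 1) and log2(TPM + 0.1), the suffix as a block, each suffix alone, and each line left out. Gene positions are from GENCODE M21 (mm10). Of the 10 IDs 9 matched with their version, and *Itga6* matched without it.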

Additional observations from a re-analysis of the deposited data

Results flagged for a closer look

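In 2 of 18 groups of 4 lines, 1 line lay far from the others by Dixon's criterion, which flags about 1 in 20 groups by chance. *Itga3* in WT34 was at 193 CPM, while the other WT lines were at 128 to 136 CPM, a gap of 0.879 of the range. *Itga7* in KO15 was at 0.727 CPM, while the other KO lines were at 1.36 to 1.46 CPM, a gap of 0.864 of the range.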

How the results depend on the processing

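Between KO and WT, 0 receptors were called under every alternative run, and the lowest adjusted p was 0.288. Of 166 values of single receptors, 149 kept their direction and 17 changed sign without being called. *Itgb1* was −0.01 by limma on log2(TPM + 1), with and without a filter, and on log2(TPM + 0.1), and −0.03 to 0.10 with a line left out. *Itga7* was 0.03 by limma without a filter, 0.16 in b2 alone and −0.25 to 0.14 with a line left out. *Dag1* was 0.01 without a filter, 0.04 in b2 alone and −0.08 to 0.09 with a line left out. *Ddr1* was 0.07 in b1 alone and −0.17 to 0.02 with a line left out, and *Itgb4* was −0.01 to 0.18. With a line left out, *Itga1* ranged from 0.25 to 0.56, *Itga3* from 0.18 to 0.47, *Itga5* from 0.20 to 0.44 and *Itga6* from 0.08 to 0.26. Without a filter 2 of 10 receptors, and with library size alone 1 of 9, had an unadjusted p under 0.05, against 4.4% and 5.26% of all genes. Between b2 and b1 the receptors called were 1 of 9 with library size alone (*Itgb4*, −0.43), where 25.7% of all genes were called, 2 of 10 without a filter (*Itga3*, 0.27, and *Dag1*, 0.21), where 15.1% were, and 0 to 3 with a line left out, 3 of them without WT12, where 27.3% of genes were called. *Itga5* was −0.04 with library size alone, −0.01 without a filter, −0.21 by limma on log2(TPM + 1) with and without a filter, −0.24 on log2(TPM + 0.1) and −0.14 to 0.13 with a line left out. *Itgb1* was −0.05 with library size alone, −0.01 without a filter and −0.06 to 0.07 with a line left out. The cause of these changes was not tested.

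Genes called over the whole table between KO and WT were 7 by edgeR, 106 by DESeq2, 2, 2 and 3 by limma, 28 with the suffix as a block and 19 in b1 alone. Between suffixes they were 4253 by edgeR, 4607 by DESeq2, 848 to 1624 by limma, 2655 without KO9 and 2763 without WT7. Library size alone gave 1933 higher and 2511 lower in b2, against 2359 and 1894 with TMM. For the interaction edgeR called 0, or 168 without a filter, and DESeq2 called 2. No paired analysis was possible because the labels do not say which KO line is a littermate of which WT line. With 4 lines a group, *Itga1* and *Itga7* have wide intervals and *Itga2* cannot be compared.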
